A study of Homo sapiens with 12 samples.

Results

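The miR-99/100 family comprises the mature microRNAs of 3 human hairpins, MIR99A, MIR99B and MIR100. Its members were chosen by name and, since the family was picked out for them, selected on measured values, namely its share of all miRNA counts and its course over the 4 groups of extracellular vesicles (EV). Of the 6 mature arms, 4 are in the miRNA table of 1133 miRNA: hsa-miR-99a-5p, hsa-miR-99b-5p, hsa-miR-100-5p and hsa-miR-99b-3p. All 4 passed the filter on low counts in each comparison. In those with CMm-EV, hsa-miR-99b-3p did so through the other group alone, as it had 0 counts in CMm-EV 1. As the family was selected on measured values, the levels and fold changes of all 4 are given as a description. Nothing is read from the calls counted for them below.

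Small RNA was sequenced from EV released by a human induced pluripotent stem cell line (iPS(IMR90)-4, 1 line in all groups) on its way to cardiomyocytes, to ask how EV cargo changes with commitment. hiPSC-EV came from pluripotent cells at day 0, CPC-EV from cardiac progenitors at day 6, CMi-EV from immature cardiomyocytes at day 15 and CMm-EV from cardiomyocytes after maturation at day 35, with medium conditioned for 24, 72, 48 and 48 h. Each group has 3 libraries, and total miRNA counts ranged from 703418 in hiPSC-EV 1 to 6272456 in CMm-EV 2. Culture medium and day differ between all groups, and conditioning time between all but CMi-EV and CMm-EV. By the paper's methods, cells were monolayers for hiPSC-EV and CPC-EV and aggregates in suspension for CMi-EV and CMm-EV. Where they differ, these factors cannot be told apart from the group. Nor can fewer vesicles from a kind of cell be told apart from less of a miRNA per vesicle.

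A microRNA guides a silencing complex to messenger RNAs that pair with its seed, a short stretch near its 5′ end. The miR-99/100 family is known for targets in the mTOR pathway, which controls growth and protein synthesis. Its hairpins lie in clusters with let-7 and miR-125 hairpins, and maturation of let-7 is known to be restrained by the RNA-binding protein LIN28 in pluripotent cells.

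The mature sequences are shown because the family is defined by a shared seed and because its members differ at few positions. They are from RefSeq (GRCh38.p14), 5′ to 3′, with the seed (bases 2 to 8) in capitals. All 4 members matched an entry.
hsa-miR-99a-5p: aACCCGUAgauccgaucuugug
hsa-miR-100-5p: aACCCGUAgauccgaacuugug
hsa-miR-99b-5p: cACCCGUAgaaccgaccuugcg
hsa-miR-99b-3p: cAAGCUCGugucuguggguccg

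Each is 22 bases long, and the 3 5p arms share 1 seed. With positions counted from 1 at the 5′ end, hsa-miR-100-5p and hsa-miR-99a-5p differ at 1 position (A16U). From hsa-miR-100-5p to hsa-miR-99b-5p there are 4 differences (A1C, U11A, A16C and U21C), none of them in the seed. Reads that do not cover or do not resolve these positions can be divided between arms. Counts that were not whole (tolerance 0.001), a sign of divided reads, occurred in 4 of 12 libraries for hsa-miR-99a-5p, 5 for hsa-miR-99b-5p and 6 for hsa-miR-100-5p.

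The partner miRNAs used below, and miR-10a-5p, a relative of the family, have other seeds.
hsa-let-7e-5p: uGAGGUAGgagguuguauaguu
hsa-let-7c-5p: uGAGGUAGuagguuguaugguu
hsa-miR-125a-5p: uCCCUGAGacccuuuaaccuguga
hsa-miR-125b-5p: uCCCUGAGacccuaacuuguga
hsa-miR-10a-5p: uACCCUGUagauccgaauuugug

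The let-7 pair shares 1 seed and the miR-125 pair another, whereas the seed of hsa-miR-10a-5p is not that of the family. In the annotation of the same genome, MIR99A lies at chr21:16539089-16539169 (+) inside the long non-coding RNA MIR99AHG, with the let-7c hairpin 658 bases away. MIR100 lies at chr11:122152229-122152308 (-) inside the long non-coding RNA MIR100HG, with the let-7a-2 hairpin 5635 bases away. MIR99B lies at chr19:51692612-51692681 (+) inside the protein-coding gene SPACA6, 104 bases from the let-7e hairpin and 572 bases from that of miR-125a. None of the 3 hairpins overlaps an annotated exon of its host, so all are intronic.

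Taken as a whole, the family made up a small part of the miRNA counts in EV of pluripotent cells and a large part in EV of cardiomyocytes. Its share was 2.20%, 1.94% and 2.16% in the hiPSC-EV libraries and 8.21%, 7.26% and 11.9% in those of CPC-EV. It was 42.6%, 32.9% and 40.0% in CMi-EV and 35.7%, 44.8% and 41.0% in CMm-EV. The group means were 2.10% ± 0.140, 9.13% ± 2.47, 38.5% ± 5.04 and 40.5% ± 4.55 (SD, n = 3 each). The first 3 groups did not overlap, while those of CMi-EV and CMm-EV did, with means that differed by less than their spread. The shares depend on the denominator. As a share of the authors' library totals the means were 1.12% ± 0.125, 4.00% ± 0.851, 23.4% ± 4.63 and 31.3% ± 8.20, and on TMM-scaled counts those of CMi-EV and CMm-EV were 34.4% ± 8.70 and 58.0% ± 20.96, with ranges that overlap on both scales.

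The members stood higher from different stages on. hsa-miR-99b-5p, the main arm in pluripotent EV, held 1.97%, 1.77% and 1.96% of counts in hiPSC-EV, and 7.82%, 6.99% and 11.1% in CPC-EV. Its share was 14.3%, 10.3% and 11.0% in CMi-EV and 9.03%, 13.4% and 13.1% in CMm-EV. All CPC-EV libraries lay above all hiPSC-EV libraries, and from CPC-EV on the shares of neighbouring groups overlapped (on TMM-scaled counts CPC-EV and CMi-EV did not).

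hsa-miR-99a-5p was the scarcest 5p arm at the start, with 0.00355%, 0.00376% and 0.00330% of counts in hiPSC-EV. The first of these rests on 25 counts (exact 95% binomial interval 0.00230% to 0.00525%, which covers counting error only). In CPC-EV its share was 0.139%, 0.0729% and 0.391%, in CMi-EV 4.69%, 3.90% and 3.20%, and in CMm-EV 3.31%, 3.02% and 2.70%. It stood higher at both of the first steps, with CPC-EV 3 the highest of its group, and the ranges of CMi-EV and CMm-EV overlapped.

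hsa-miR-100-5p stood apart between CPC-EV and CMi-EV. It held 0.215%, 0.157% and 0.188% of counts in hiPSC-EV and 0.250%, 0.190% and 0.478% in CPC-EV, ranges that overlap. Its share was then 23.6%, 18.7% and 25.8% in CMi-EV and 23.4%, 28.4% and 25.1% in CMm-EV. In all 6 libraries of these later groups it was the miRNA with the highest count, rank 1, against ranks from 30 to 52 in the 6 earlier ones.

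**Figure D1:**
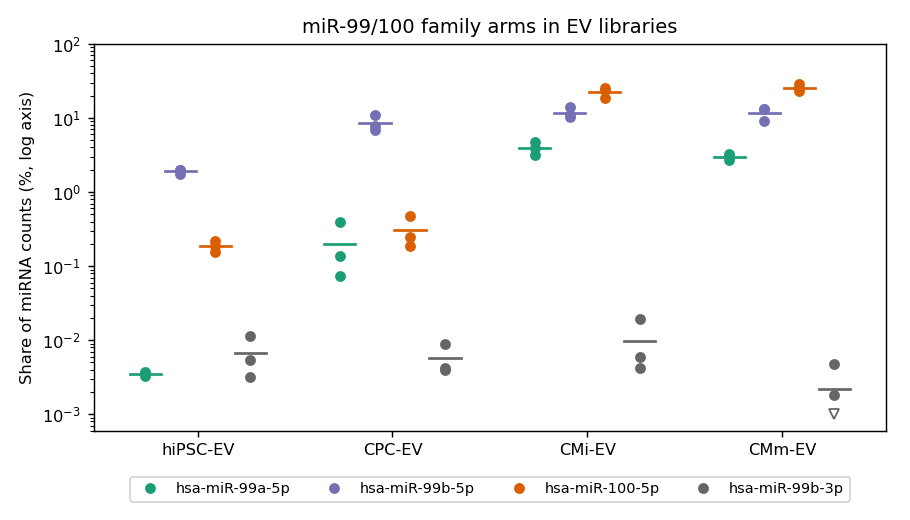
Share of miRNA counts (%, log axis) of the 4 members in each EV group, with points for the 3 libraries, a bar at the group mean and an open triangle for a library with 0 counts. hsa-miR-99b-5p is higher from CPC-EV on, hsa-miR-99a-5p at both of the first steps, and hsa-miR-100-5p from CMi-EV on.

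hsa-miR-99b-3p, the passenger arm of MIR99B, was low throughout. It had 81, 81 and 305 counts in hiPSC-EV, 66, 144 and 138 in CPC-EV, 413, 71 and 81 in CMi-EV, and 0, 113 and 242 in CMm-EV. The 0 in CMm-EV 1 allows a share of up to 0.000305%, at 3 counts of the library total. Shares overlapped between all neighbouring groups. The count ratio of the 5p to the 3p arm was 171, 550 and 360 in hiPSC-EV, 1990, 1642 and 1233 in CPC-EV and 747, 2446 and 1856 in CMi-EV, and in CMm-EV, where the first library gave none, it was 7430 and 2753. All CPC-EV ratios were higher than all hiPSC-EV ratios, CPC-EV and CMi-EV overlapped, and both CMm-EV ratios were higher than those of CMi-EV.

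Within the family, hsa-miR-99b-5p made up 89.5%, 91.5% and 90.9% of counts in hiPSC-EV and 95.2%, 96.3% and 92.6% in CPC-EV. In CMi-EV it made up 33.5%, 31.3% and 27.5%, while hsa-miR-100-5p made up 55.5%, 56.8% and 64.5%. In CMm-EV the shares of hsa-miR-100-5p were 65.5%, 63.4% and 61.3%, and those of hsa-miR-99b-5p 25.3%, 29.9% and 32.1%. The leading arm was thus hsa-miR-99b-5p in the 6 earlier libraries and hsa-miR-100-5p in the 6 later ones, with no overlap in the share of either.

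**Figure D2:**
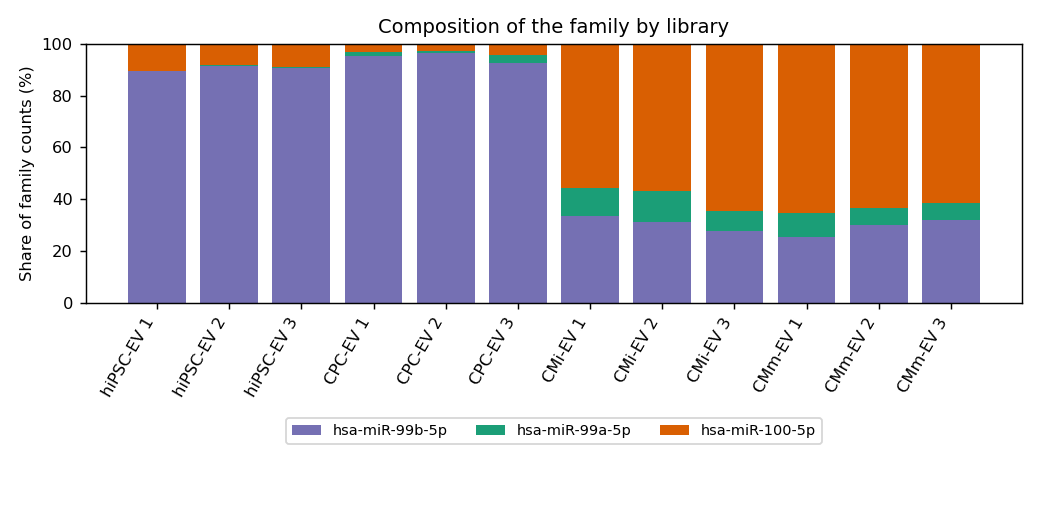
Share of the family's counts (%) held by each 5p arm in each of the 12 libraries. hsa-miR-99b-5p fills 89.5% or more of every hiPSC-EV and CPC-EV bar, and hsa-miR-100-5p 55.5% or more of every CMi-EV and CMm-EV bar.

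The ratio of the arms that differ at 1 base was not constant. Per 100 counts of hsa-miR-100-5p there were 1.65, 2.39 and 1.76 of hsa-miR-99a-5p in hiPSC-EV, and 55.5, 38.4 and 81.8 in CPC-EV. The values were 19.9, 20.9 and 12.4 in CMi-EV and 14.1, 10.7 and 10.8 in CMm-EV. The ratio was lowest in hiPSC-EV and highest in CPC-EV, with no overlap between those groups and the rest. How many reads of one arm were counted as the other was not tested.

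Fold changes were estimated with edgeR after TMM scaling of 6 libraries at a time, and are given as log2 ± SE. Between CPC-EV and hiPSC-EV hsa-miR-99a-5p differed by 5.61 ± 0.51, hsa-miR-99b-5p by 2.02 ± 0.19 and hsa-miR-100-5p by 0.53 ± 0.31. Between CMi-EV and CPC-EV the differences were 4.88 ± 0.49, 0.97 ± 0.24 and 6.75 ± 0.31 in the same order. Between CMm-EV and CMi-EV they were 0.22 ± 0.23, 0.67 ± 0.38 and 0.80 ± 0.34. Without CPC-EV 3, hsa-miR-99a-5p differed by 4.86 between CPC-EV and hiPSC-EV and by 5.55 between CMi-EV and CPC-EV. The order of the arms thus differed between the first steps, where hsa-miR-99a-5p and then hsa-miR-100-5p had the largest value. Over the whole course, CMm-EV against hiPSC-EV, hsa-miR-99a-5p was higher by 10.08 ± 0.27, hsa-miR-100-5p by 7.50 ± 0.30 and hsa-miR-99b-5p by 3.05 ± 0.37.

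Past a false discovery rate (FDR) of 0.05 and a log2 change of 1 either way, 2, 2, 0 and 3 of the 4 members were called higher in these 4 comparisons and 0 lower. Of all miRNA tested, 11.5%, 14.4%, 6.48% and 16.1% were called higher and 16.0%, 14.0%, 10.1% and 37.5% lower. Nothing is read from the members' count, since their course was used to choose them.

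The last step depends on the scaling. With library size only, the log2 change from CMi-EV to CMm-EV turned negative for hsa-miR-99a-5p (-0.39), was near 0 for hsa-miR-99b-5p (-0.0005) and was 0.17 for hsa-miR-100-5p. The median over all tested miRNA moved likewise, from -0.30 with TMM to -0.91. Relative to that median all 3 arms stood higher under both scalings. At the step before it, the median moved from -0.05 to -0.52, and that of CPC-EV against hiPSC-EV from -0.27 to -0.10.

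**Figure D3:**
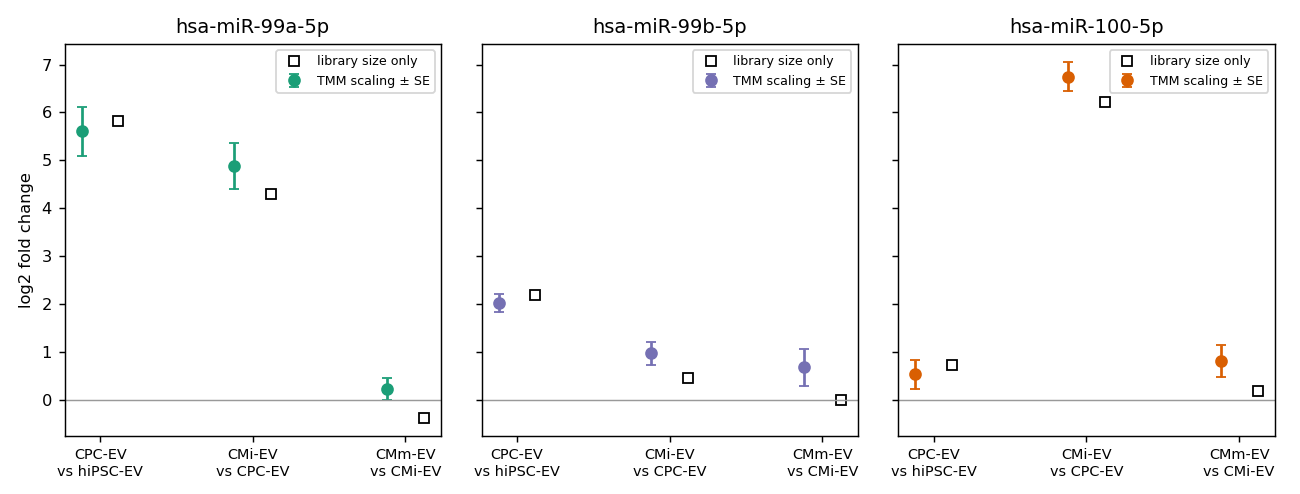
log2 fold change of the 3 5p arms at each step, with filled circles and bars for TMM scaling ± SE and open squares for library size only. At the last step the squares lie lower than the circles, and for hsa-miR-99a-5p on the other side of 0.

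The miRNAs that share a cluster with the family were not used to choose it and were tested over the whole miRNA table. Their list was drawn up with earlier results of these data known. One of them, miR-125b-5p, is also among the miRNA most like the family total (Pearson r = 0.98, below). The tests of the partners are thus not independent of the choice of the family. Of 11 mature arms, 10 were in the table, and 6, 8, 8 and 8 were tested in the 4 comparisons (CPC-EV against hiPSC-EV, CMi-EV against CPC-EV, CMm-EV against CMi-EV, CMm-EV against hiPSC-EV). Of these 3, 6, 4 and 6 rose and 1, 0, 0 and 0 fell. Their median log2 changes were 1.91, 2.99, 1.26 and 6.76, against -0.27, -0.05, -0.30 and -1.53 over all tested miRNA. These counts and medians are a description, since 2, 2, 1 and 5 of the tested partners passed the filter on low counts in 1 of the compared groups alone, which favours a difference. Of the 4, 6, 7 and 3 that passed it in both groups, a split made after the values had been seen, 2, 4, 4 and 2 rose and 1, 0, 0 and 0 fell. Of all 213, 189, 165 and 146 miRNA that passed in both, 10.3%, 14.8%, 7.27% and 17.1% were called higher and 15.5%, 15.9%, 7.27% and 30.1% lower. The partners' medians were 1.30, 1.89, 1.70 and 4.61, against -0.12, 0.10, -0.04 and -0.22 over these miRNA. let-7c-3p was not among the counted miRNA, and let-7e-3p and let-7a-2-3p were above 0 only in CMm-EV 2.

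miR-125a-5p, which lies with miR-99b, held 0.768%, 0.764% and 0.598% of counts in hiPSC-EV, 3.05%, 2.45% and 4.92% in CPC-EV, 5.56%, 6.42% and 6.68% in CMi-EV and 13.6%, 13.0% and 12.9% in CMm-EV. No neighbouring groups overlapped. It rose at each step, by 2.13 ± 0.21 (edgeR FDR 0.00062), 1.35 ± 0.20 (FDR 0.0032) and 1.70 ± 0.26 (FDR 0.0065) on the log2 scale. With library size only, the second step was 0.84 and no longer past the threshold.

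let-7e-5p, from the hairpin between them, was far scarcer, and its rise passed the test at the later steps only. It had 0, 64.5 and 126.5 counts in hiPSC-EV, 67, 107 and 189 in CPC-EV, 1121, 698.5 and 807 in CMi-EV and 7681, 33623 and 27212.5 in CMm-EV. From hiPSC-EV to CPC-EV its log2 change was 1.72 ± 1.30 and did not pass the test (edgeR FDR 0.39), although the groups did not overlap. It rose by 3.54 ± 0.48 in CMi-EV (FDR 0.0029) and by a further 4.16 ± 0.22 in CMm-EV (FDR 5.4e-05), each time in 3 of 3 libraries.

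Per 100 counts of hsa-miR-99b-5p there were thus 0.364, 0.402 and 0.537 of let-7e-5p in CMi-EV and 8.63, 4.00 and 4.08 in CMm-EV, from hairpins 104 bases apart. For miR-125a-5p the values were 39.0, 62.4 and 60.7 in CMi-EV and 150, 97.5 and 97.9 in CMm-EV. A ratio of the 2 partners leaves the family out. The log2 ratio of let-7e-5p to miR-125a-5p (0.5 counts added to each) was -6.95 ± 0.29 in CMi-EV and -4.44 ± 0.27 in CMm-EV (SD, n = 3), a difference of 2.51. The groups did not overlap. This ratio and the next were picked after the values had been seen and are given without a test.

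In the cluster of miR-99a the measured partners stood higher in CMi-EV and CMm-EV than in the earlier groups. miR-125b-5p, which is made from hairpins in both this and the miR-100 cluster, held 0.0378%, 0.0332% and 0.0257% of counts in hiPSC-EV, 0.114%, 0.0797% and 0.278% in CPC-EV, 3.71%, 4.57% and 5.57% in CMi-EV and 4.91%, 4.10% and 3.43% in CMm-EV. It rose by 2.11 ± 0.39 (edgeR FDR 0.0077) and 5.42 ± 0.36 (FDR 0.00031) at the first steps and differed by 0.42 ± 0.23 at the last, short of the test (FDR 0.29). Its arm miR-125b-2-3p, specific to the miR-99a cluster, had 0, 36 and 23 counts in hiPSC-EV, 191, 350 and 370 in CPC-EV, 1248, 925 and 820 in CMi-EV and 629, 1830 and 1418 in CMm-EV. It rose by 4.39 ± 1.06 (FDR 0.028) and 2.44 ± 0.32 (FDR 0.0021). At the first step it passed the filter on low counts through CPC-EV alone, which favours a rise, and that call was lost without hiPSC-EV 3 (4.20) or CPC-EV 3 (4.00) and with the replicate number as a block (5.12).

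let-7c-5p was at 0, 0 and 1.5 counts in hiPSC-EV and 0, 0.5 and 1 in CPC-EV, too few for a fold change, although its calls in CMi-EV against CPC-EV and in CMm-EV against hiPSC-EV are among those counted, and its fitted values in the medians over all tested partners. It had 97, 194.3 and 68 counts in CMi-EV and 1552, 6377 and 10438 in CMm-EV, and rose by 5.16 ± 0.48 at that step (edgeR FDR 0.001) in 3 of 3 libraries. Its log2 ratio to miR-125b-2-3p was -3.17 ± 0.80 in CMi-EV and 1.99 ± 0.81 in CMm-EV, without overlap.

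In the miR-100 cluster the partners had unlike courses. miR-125b-1-3p had 0, 1 and 16 counts in hiPSC-EV, 0, 46 and 80 in CPC-EV, 873, 519 and 589 in CMi-EV and 336, 1479 and 1285 in CMm-EV. Its log2 change from CPC-EV to CMi-EV was 4.72 ± 1.19 (edgeR FDR 0.037), where it passed the filter on low counts through CMi-EV alone. That call was lost without CPC-EV 2 (4.6), without any 1 of the CMi-EV libraries (4.61, 4.91 and 4.63), with library size only (4.13) and with edgeR's filterByExpr (4.69). let-7a-5p, which other hairpins also give, held 0.134%, 0.163% and 0.194% of counts in hiPSC-EV, 0.0354%, 0.0322% and 0.0415% in CPC-EV, 0.0164%, 0.0181% and 0.00989% in CMi-EV and 0.317%, 0.219% and 0.321% in CMm-EV. It fell by 2.34 on the log2 scale in CPC-EV (SE 0.27, FDR 0.001) and rose by 4.91 ± 0.32 in CMm-EV (FDR 0.00019), and its shares were lowest in CMi-EV, where hsa-miR-100-5p first stood high (CMi-EV against CPC-EV -0.82 ± 0.36, FDR 0.15, past the threshold with library size only, -1.29). Reads of let-7 members with near-identical sequence can also be divided.

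**Figure D4:**
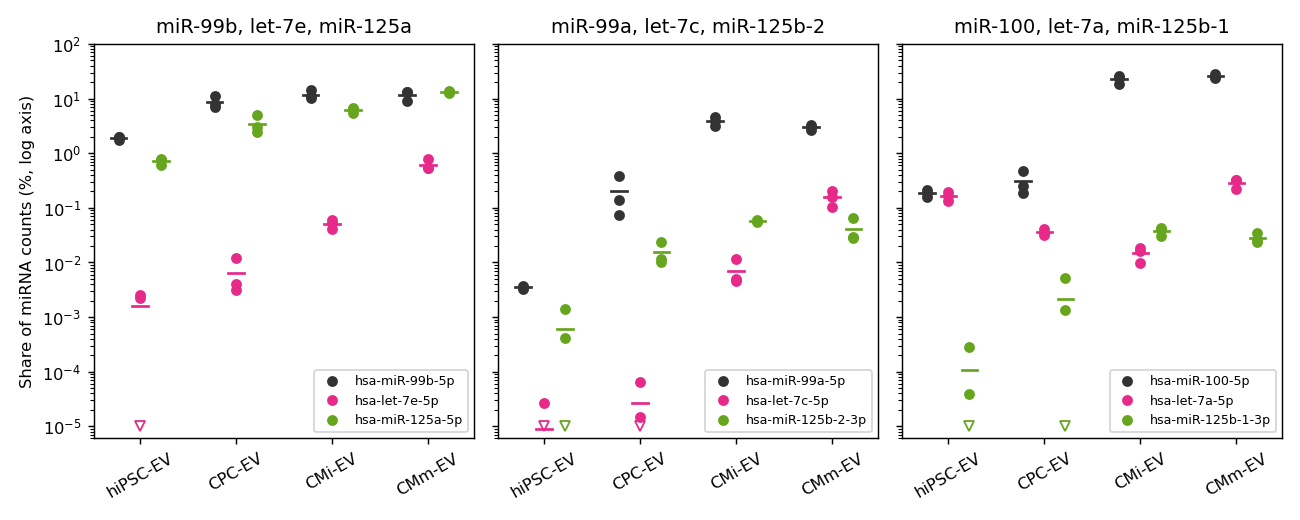
Share of miRNA counts (%, log axis) of 1 family member, 1 let-7 and 1 miR-125 arm from each of the 3 clusters, with points for libraries, bars for group means and open triangles for libraries with 0 counts. In CPC-EV, CMi-EV and CMm-EV all 3 let-7 arms lie under the family member of their cluster, and in CMm-EV all 3 are higher than in CMi-EV.

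Of the relatives, miR-10a-5p and miR-10b-5p were in the table. miR-10a-5p had 2, 93 and 3.5 counts in hiPSC-EV, and held 0.0565%, 0.0765% and 0.158% of counts in CPC-EV, 0.560%, 0.413% and 1.61% in CMi-EV and 0.700%, 1.38% and 1.45% in CMm-EV. It rose by 6.00 ± 1.07 (edgeR FDR 0.011) and 3.67 ± 0.56 (FDR 0.0042) at the first steps, at the first of which it passed the filter on low counts through CPC-EV alone. Its log2 difference at the last, 1.14 ± 0.65, did not pass the test (FDR 0.31) but did without CMi-EV 3 (2.00) or without an expression filter (1.13). miR-10b-5p passed the test at no step, with FDR of 0.3, 0.3 and 0.48.

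Among 487 expressed miRNA, those whose log2 level over the 12 libraries was most like the family total were miR-143-3p (Pearson r = 0.99), miR-1-3p (0.98), miR-125b-5p (0.98), miR-24-3p (0.97) and miR-143-5p (0.97). The lowest r were those of miR-302e (-0.98), miR-18a-5p (-0.96) and miR-1298-5p (-0.96). The 12 points fall into 4 groups of 3 libraries and share depth and scaling, and r is given as a description.

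Sums of cell type markers also differed between groups, and their part in the family's course was not tested. The 8 pluripotency miRNA summed to 21.1%, 17.8% and 17.6% of counts in hiPSC-EV, 11.0%, 9.40% and 8.50% in CPC-EV, 0.570%, 0.763% and 0.405% in CMi-EV and 0.0253%, 0.00800% and 0.00550% in CMm-EV, with miR-302b-3p the most abundant. The 5 cardiomyocyte miRNA, led by miR-1-3p, summed to 0.00796%, 0.00442% and 0.00571%, then 0.117%, 0.102% and 0.265%, then 5.51%, 8.53% and 2.10%, and in CMm-EV 3.15%, 3.09% and 10.4%. miR-208b-3p of that list was at 0 in all hiPSC-EV and CPC-EV libraries. In the 4 comparisons 2 of 7, 4 of 7, 2 of 4 and 6 of 6 tested pluripotency miRNA fell by the edgeR test and 0 rose, while 2 of 2, 3 of 3, 0 of 5 and 5 of 5 cardiomyocyte miRNA rose and 0 fell. Over all miRNA tested, 16.0%, 14.0%, 10.1% and 37.5% were called lower and 11.5%, 14.4%, 6.48% and 16.1% higher. Of the tested miRNA, 1, 3, 3 and 5 of the pluripotency list and 1, 1, 2 and 4 of the cardiomyocyte list passed the filter on low counts in 1 of the compared groups alone, so the shares called are partly fixed by the filter. Of the pluripotency calls 0, 3, 1 and 6 held under every alternative that gave a value, and of the cardiomyocyte calls 1 of 2, 2 of 3 and 5 of 5. In CPC-EV against hiPSC-EV the call of miR-302b-3p (-1.11) was lost without CPC-EV 3 (-0.92) and with library size only (-0.99). It was also lost with DESeq2 or its size factors (-0.99), scaling without the family (-0.98) and dispersion and scaling from all 12 libraries (-1.29). That of miR-302c-3p (-1.20) was lost without hiPSC-EV 3 (-0.90), CPC-EV 1 (-1.16) or CPC-EV 3 (-1.03). It was also lost with the replicate block (-1.16) or dispersion and scaling from all 12 libraries (-1.37). There miR-133a-3p (3.52) lost its call without hiPSC-EV 2 (3.26), hiPSC-EV 3 (3.02) or CPC-EV 3 (3.01) and with the replicate block (3.76). In CMi-EV against CPC-EV miR-302d-3p (-2.77) lost it without CPC-EV 1 (-2.90) or CPC-EV 2 (-2.29), and miR-208a-3p (6.79) without CPC-EV 3 (6.17), CMi-EV 1 (6.88) or CMi-EV 2 (6.80). In CMm-EV against CMi-EV miR-302d-3p (-8.57) lost it without CMm-EV 2 (-7.68) and with the replicate block (-8.46). Other calls were gained. Without CMi-EV 2, miR-367-3p (-10.66), miR-372-3p (-12.37) and miR-373-3p (-9.66) were called lower in CMi-EV against CPC-EV. Their counts in the remaining CMi-EV libraries were 0. In CMm-EV against CMi-EV miR-302c-3p was called lower with library size only (-5.36), DESeq2 (-4.54) or no expression filter (-4.62). With dispersion and scaling from all 12 libraries, miR-302c-3p (-4.45) and miR-302a-3p (-2.82) were called lower there. Of the cardiomyocyte list, miR-208b-3p (10.67, over 0 counts in the remaining CMi-EV libraries) and miR-499a-5p (5.83) were called higher in CMm-EV against CMi-EV without CMi-EV 3. The latter was also called without an expression filter (3.26). The pluripotent and cardiomyocyte groups carried the markers of their labels by summed share. The smooth muscle and mesenchymal sum, given next and mostly miR-143-3p, was above the cardiomyocyte sum in CMi-EV 3, CMm-EV 1 and CMm-EV 2. It was lower in the other libraries of these groups.

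The 5 measured miRNA of smooth muscle and mesenchymal cells, led by miR-143-3p from CPC-EV on, summed to 0.0729%, 0.0573% and 0.0761% in hiPSC-EV, 0.353%, 0.282% and 0.792% in CPC-EV, 3.66%, 3.77% and 6.31% in CMi-EV and 11.1%, 9.96% and 10.3% in CMm-EV. In CMm-EV the mean share was 10.4% for miR-143-3p alone and 0.046% for miR-145-5p. The paper counts miR-143 and miR-145 among miRNA specific to cardiomyocytes, so this sum does not tell these kinds of cell apart. miR-143-3p rose at each step, by 3.69 ± 0.39 (edgeR FDR 0.00091), 3.85 ± 0.36 (FDR 0.00078) and 1.82 ± 0.32 (FDR 0.013), the last call being lost without CMm-EV 2 (1.83). Of this list 1 of 3, 2 of 3, 1 of 3 and 3 of 4 tested miRNA rose in the 4 comparisons and 1, 0, 0 and 1 fell. Over all miRNA tested, 11.5%, 14.4%, 6.48% and 16.1% were called higher and 16.0%, 14.0%, 10.1% and 37.5% lower. Nothing is read from a count of 1 in this or the following short lists. In this list 1, 1, 1 and 3 of the tested miRNA passed the filter in 1 group alone. Under every alternative that gave a value, 1, 2, 0 and 2 of the rises and none of the falls held. The falls, of miR-199b-5p, were lost with dispersion and scaling from all 12 libraries (-2.43 in CPC-EV, -4.93 in CMm-EV, both against hiPSC-EV). The first was also lost without any 1 hiPSC-EV library (-2.21, -2.40 and -2.14) or CPC-EV 3 (-2.35), with library size only (-2.05) and with the replicate block (-2.55). The rise of miR-199a-5p in CMm-EV over hiPSC-EV (4.52) was lost without hiPSC-EV 1 (4.24) or hiPSC-EV 2 (4.01). It was also lost with filterByExpr (4.67), no expression filter (4.78), dispersion and scaling from all 12 libraries (5.14) or the replicate block (6.22). miR-214-3p was at 0 in all hiPSC-EV and CPC-EV libraries. Endothelial miRNA (2) stayed at or under 0.0164% of counts in every library and measured blood miRNA (4, led by miR-486-5p) at or under 0.728%. Of the endothelial list 1 of 2, miR-126-5p, passed the test from hiPSC-EV to CMm-EV (-3.66 ± 1.09, edgeR FDR 0.035). Both endothelial miRNA passed the filter there through hiPSC-EV alone. The call was lost without any 1 hiPSC-EV library (-3.79, -3.51 and -3.54) or CMm-EV 2 (-3.27). It was also lost with filterByExpr (-3.58), no expression filter (-3.63), dispersion and scaling from all 12 libraries (-3.11) or the replicate block (-4.33). Of the blood list 1 of 1 tested, miR-486-5p, fell in CMm-EV and in CPC-EV, both against hiPSC-EV. The paper names miR-486 among the miRNA found only or mainly in striated muscle. The 4 measured endoderm and liver miRNA had their highest sum in CPC-EV, at 1.08%, 1.06% and 1.10%, where miR-375-3p rose by 6.32 ± 0.40 over hiPSC-EV (edgeR FDR 0.00048). Of these, 3 of 4 rose in CPC-EV over hiPSC-EV, 1 of 4 fell at each later step, and 1 of 4 rose over the whole course. In these comparisons 1, 0, 1 and 2 passed the filter in 1 group alone. The call of miR-192-5p in CPC-EV (1.05) was lost without hiPSC-EV 1 (0.88), hiPSC-EV 2 (1.01) or CPC-EV 3 (0.94). It was also lost with no expression filter (0.93) or with dispersion and scaling from all 12 libraries (0.86). That of miR-375-3p in CMm-EV against CMi-EV (-5.34) was lost without CMm-EV 1 (-4.98) and with the replicate block (-6.07).

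The host transcripts of the hairpins were barely seen in these libraries. By the paper's methods they were made with a small RNA kit, so the counts stand for short fragments. They do not measure how much whole transcript the vesicles held. MIR100HG had 1, 8.5 and 5.5 counts in hiPSC-EV, 7, 15.5 and 11 in CPC-EV, 6, 3 and 2 in CMi-EV and 2, 4 and 3 in CMm-EV, in libraries of 131423 to 1908540 transcript counts. These counts are too low to compare between groups. SPACA6 was above 0 in 1 library (hiPSC-EV 3, 5 counts), SPACA6P in 1 (CMi-EV 1, 15.3 counts), and MIR99AHG had no entry in the transcript table under either of its names.

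Reported targets of the family and genes of the mTOR pathway were also close to the limit of detection in these small RNA libraries. Each of the 9 targets and 12 pathway genes was above 0 in some library and none in all 12. MTOR, the kinase at the centre of the pathway, had counts in hiPSC-EV 2 and 3 only (12 and 31). SMARCA5, a chromatin remodeller, had 1, 71 and 94.3 counts in hiPSC-EV, 55, 162 and 52 in CPC-EV, 3, 0 and 15 in CMi-EV and 0, 1 and 19 in CMm-EV, and IGF1R, a growth factor receptor, had 76, 66 and 85, then 36, 58.6 and 7, then 32, 26.6 and 24, then 1, 22 and 0. Other genes of the lists ran otherwise. AKT1, a kinase upstream of MTOR, had 16, 25 and 34.0 counts in hiPSC-EV, 21, 55 and 90 in CPC-EV, 71.0, 14 and 0 in CMi-EV and 0, 1 and 21 in CMm-EV. RICTOR, a subunit of an MTOR complex, had 0, 0 and 10, then 45, 73 and 0, then 0, 12.3 and 0, then 4, 66 and 0, and MLST8, another subunit, was above 0 in hiPSC-EV 3 (16), CMi-EV 1 (41) and CMm-EV 1 (32) only. These examples were picked after their values had been seen. Total transcript counts were at or under 499729 in all CMi-EV and CMm-EV libraries and 307432 or more in those of hiPSC-EV and CPC-EV. Only 4, 3, 1 and 3 entries of the targets passed the filter on low counts in the 4 comparisons. Differences in most of these transcripts were thus not detectable from short fragments at this depth.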

How the data were processed

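Expected counts per miRNA and per gencode transcript, and the same scaled to library totals (RPM), were deposited by the authors, who mapped small RNA reads to the genome (hg38) with the exceRpt pipeline. The submitters' notes name edgeR 3.24.0. The deposited RPM values served only to recover the library totals, an alternative denominator of the family's share. Expected counts were rounded and tested with edgeR 4.0.16 (TMM, glmQLFit, glmQLFTest, two-sided, Benjamini-Hochberg over all tested features) on the 6 libraries of each comparison, keeping features with at least 5 CPM in all 3 libraries of a group. DESeq2 1.42.0 was an alternative (R 4.3.3, limma 3.58.1, Python 3.11.15). Shares are of the summed miRNA counts of a library, not scaled.

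The members and lists were chosen with earlier results of these data known. Named miRNA were the members, the listed partners, relatives and markers, and the 5 highest and 3 lowest in Pearson r with the family total of log2(TMM CPM + 1). Steps were tested on simulated data. For miRNA they recovered planted changes that were large and balanced between rises and falls, in counts modelled on CPC-EV and hiPSC-EV alone. A shift of composition like that of the family was not simulated. On the shallower gencode counts the filter by group let through more false calls than its nominal rate, so no result rests on gencode calls. Intervals and limits from counts cover counting error only, as no molecular identifiers are described for these reads. Replicates of a group differed by more than sampling noise (chi-square per degree of freedom 51.6 or more).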

Additional observations from a re-analysis of the deposited data

How the results depend on the processing

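The 3 5p arms kept the sign of their log2 changes at the first 2 steps and over the whole course under all scalings, filters, tests and left-out libraries. With library size only, the values that moved by more than the spread between replicates were -0.39 for hsa-miR-99a-5p (CMm-EV vs CMi-EV), 0.46 for hsa-miR-99b-5p and 6.21 for hsa-miR-100-5p (both CMi-EV vs CPC-EV). The only other values to do so were for hsa-miR-99a-5p in CMm-EV vs hiPSC-EV. These were with dispersion and scaling from all 12 libraries (10.62) and without CMm-EV 1 (10.47, the highest of 10.06 to 10.47 with 1 library left out). The cause was not tested. With the authors' library totals as denominator, the family's share was 1.12%, 4.00%, 23.4% and 31.3% in the 4 groups in order. On TMM-normalized CPM it was 2.27% in hiPSC-EV and 58.0% in CMm-EV, a scale on which shares need not sum to 100%. With Spearman's rho, 2 of the 5 most similar miRNA were shared. Leave-one-out for the family's composition was added after seeing the data and moved no value by more than the spread.

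Main counts of called miRNA were 93, 83, 41 and 180. Whether samples with the same replicate number are paired is not known. Their deviations from the group means correlated at -0.11 to 0.07 over 18 pairs, which does not settle whether they came from the same culture. The fit with the replicate block called 39 (CPC-EV vs hiPSC-EV), 69, 17 (CMm-EV vs CMi-EV) and 137. In CMm-EV vs CMi-EV filterByExpr gave 27 and leaving out 1 library 20 to 60, the lowest without CMm-EV 2. In CMm-EV vs CMi-EV hsa-miR-199a-5p, not called at -2.88, ran from -3.37 to 9.59 with 1 library left out. It turned positive and was called without CMi-EV 3, the only CMi-EV library above 0, was called lower without an expression filter (-2.85), and was 4.76 with the block.

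Calls in the gencode table were not stable. The planned filter gave 337, 724, 111 and 1093 calls by edgeR, and filterByExpr, added after seeing the data, 0, 2, 0 and 153 (371, 466, 48 and 238 at an unadjusted p under 0.05). Simulated counts of that depth also gave an excess of calls with the planned filter. Library size only gave 518 in CPC-EV vs hiPSC-EV, and DESeq2 gave 683, 1011, 184 and 1239. Leaving out 1 library gave 0 to 660, 794 to 1512, 0 to 410 and 1285 to 2262. Depth limits hsa-miR-99b-3p, let-7c-5p before CMi-EV and all host and target transcripts, which small RNA libraries count as short fragments only.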
